A study of Mus musculus with 6 samples.

Results

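The regions described here are 816 binding sites of Rev-erbα in mouse liver that belong to a list named by the submitters for independence of the DNA-binding domain (DBD) and that lie more than 1 kb and at most 10 kb from a reference point. Within that list they were chosen by the signed distance deposited with each site alone, taken to be the distance to a transcription start site (TSS). How the list itself was made is not given, and it may rest on a measure of binding. The 816 sites made up 22.8% of the 3579 sites of the DBD-independent list (95% Wilson interval 21.5 to 24.2%) and 6.93% of the 11767 sites of the pooled list for the same time of day (6.49 to 7.41%). For comparison, 1073 sites of the DBD-independent list lay within 1 kb of their point and 1690 beyond 10 kb. All 816 were found in the pooled list with the same chromosome, start and end.

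The study profiled Rev-erbα by chromatin immunoprecipitation and sequencing (ChIP-seq) in livers of C57B/6 male mice aged 12 weeks, fed normal chow on a normal light and dark schedule without further treatment. Livers were taken at zeitgeber time (ZT) 10, late in the light phase, and the same antibody served for all. The groups were 3 wild-type samples and 3 samples in which HNF6 was knocked out. The labels do not give the allele, promoter or vector behind the loss of HNF6, nor say whether a sample came from 1 animal or a pool. No sample was labelled as carrying a changed DBD, so the name of the list could not be checked against these samples. Both lists hold sites and not samples. Binding was therefore not compared between wild-type and HNF6 KO livers, no replicate error can be given, and the depth of the samples is unknown.

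Rev-erbα is a nuclear receptor of the circadian clock that represses transcription, largely by bringing the NCoR corepressor and the histone deacetylase HDAC3 to chromatin. It can bind DNA directly, as a monomer at an AT-rich element next to a nuclear receptor core motif or as a dimer at a direct repeat of that motif, where it competes with the activating ROR receptors. It can also be held at chromatin by other factors without contact of its own DBD with DNA, and in liver HNF6 (Onecut1), which controls hepatocyte genes, is known as such a partner. Sites a few kilobases from a TSS include many promoter-proximal and intronic enhancers. The sites are given below by their position in the mouse build mm9, 1-based, and their genes, exons, introns and sequences were not analysed here because no mm9 annotation or genome was used.

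Sites between 1 and 10 kb were most frequent close to the inner bound and thinned out slowly after the first kilobase. Of the 816 sites 159 (19.5%) lay 1 to 2 kb from their point, and the next 3 bins of 1 kb held 95, 95 and 92. Between 5 and 10 kb the bins held 76, 84, 70, 68 and 77 sites. The median absolute distance was 4.71 kb, with 441 sites at up to 5 kb and 375 farther out. Per kilobase of distance, counting both sides, the class held 45.3 sites, against 536.5 within 1 kb and 9.39 between 10 and 100 kb. All 1690 sites beyond 10 kb lay within 100 kb, and whether the list was cut there is not given. These densities are per kilobase of distance, and the length of genome lying at each distance from a TSS was not measured. At the inner bound the density was 170 per kilobase between 500 and 1000 bp and 79.5 between 1 and 2 kb. At the outer bound it was 38.5 per kilobase between 9 and 10 kb and 24.8 between 10 and 20 kb. Density was thus lower on the far side of each bound, and it went on falling to 11.8 per kilobase between 20 and 50 kb. The bins set side by side differ in width, so no step at a bound can be read from them.

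**Figure D1:**
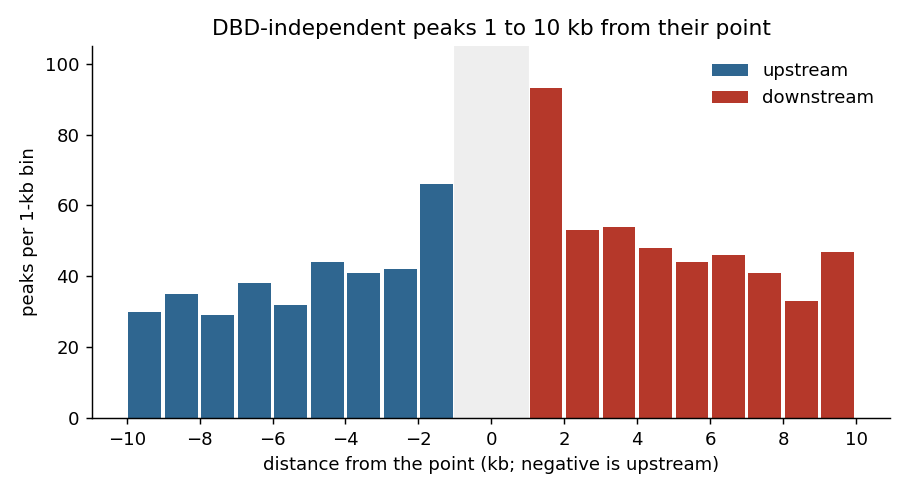
Number of DBD-independent Rev-erbα sites per 1-kb bin (vertical axis) by signed distance from the reference point in kb (horizontal axis), upstream sites in blue and downstream sites in red; the grey band is the excluded interval within 1 kb. The bin from 1 to 2 kb is the highest on each side, with 66 upstream and 93 downstream sites, and the other bins hold between 29 and 54.

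The 816 sites lay more often downstream of their point than upstream. Negative distances, read as upstream, were found at 357 sites (43.8%, 40.4 to 47.2%) and positive distances at 459. The upstream share was 70.5% within 1 kb (757 of 1073, 67.8 to 73.2%) and 41.7% beyond 10 kb (705 of 1690, 39.4 to 44.1%). The class was 26.8 percentage points below the sites within 1 kb (95% Newcombe interval of the difference, member minus other, -31.1 to -22.4). Within that nearer class the upstream share was 76.1% up to 500 bp (73.2 to 78.7%) and 41.2% between 500 and 1000 bp (34.1 to 48.7%), the latter interval taking in the share of the class. From the sites beyond 10 kb it differed by 2.03 points, with an interval of -2.08 to 6.18 that includes 0. Within the class the upstream share ran from 39.0% at 9 to 10 kb to 51.5% at 8 to 9 kb, the only one of the 9 bins with more sites upstream than downstream. Every bin's interval took in the share of the whole class. Sites on both sides lay at like distances, with a median of 4.80 kb upstream and 4.65 kb downstream.

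Each site of the DBD-independent list carries a pair of whole numbers given by the authors, here called the first and second value, whose unit and normalization are not stated. They serve to describe and rank sites within that list. Over the 816 sites the first value had a median of 12 (quartiles 8 and 20) and ran from 1 to 96. The second value had a median of 11 (quartiles 7 and 17) and ran from 1 to 82. The sites within 1 kb had the same medians with quartiles of 9 and 18 for the first value, and those beyond 10 kb had the same medians with quartiles of 7 and 19. The 3 classes thus shared a centre. The distance between the quartiles of the first value was 12 for the class and for the sites beyond 10 kb, and 9 for the sites within 1 kb. A first value of at least 30 was found at 75 of the 816 sites (9.19%, 7.40 to 11.4%), against 62 of the 1073 sites within 1 kb (5.78%, 4.53 to 7.34%). That difference was 3.41 points (Newcombe interval 1.03 to 5.92). Beyond 10 kb the share was 10.1%, and the difference of -0.927 points had an interval of -3.29 to 1.63. Distance within the class made little difference to the first value: the bins of 1 kb had medians between 11 and 13. Spearman's rho with absolute distance was -0.02 across the 816 sites, given as a description because sites are not replicates.

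The second value was mostly the lower of the pair. It was below the first at 509 of the 816 sites (62.4%, 59.0 to 65.6%), equal at 113 (13.8%) and above it at 194 (23.8%). The ratio of second to first had a median of 0.882 (quartiles 0.774 and 1) and ran from 0.675 to 1.46. It was the lower one at 62.2% of the upstream and 62.5% of the downstream sites. Within 1 kb of the point the second value was the lower one at 57.6% of sites, 4.78 points less often (Newcombe interval 0.316 to 9.20), and beyond 10 kb at 61.4%. The 2 values followed each other closely (Spearman's rho 0.95 across the 816 sites), and every ratio in the class lay within 1.5-fold. All ratios of the deposited list stop at about this limit and the rule that made the list is not given, so the closeness is no finding about these sites. The scaling of the 2 values to each other is not stated either. Which of them was the lower one is therefore given as a description only. Among the 150 sites with both values at 20 or above, the second value was the higher one at 39. The strongest tilt toward the second value among them was on chromosome 6 at 5138960 to 5139109, with 20 and 29, and the strongest toward the first on chromosome 10 at 5725485 to 5725634, with 40 and 27. These 2 sites were picked after their values were seen.

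**Figure D2:**
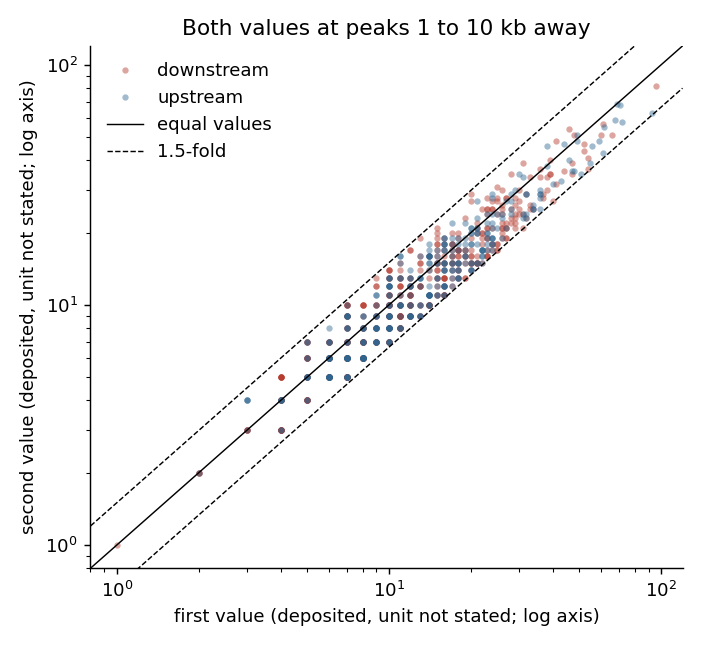
Second value (vertical axis) against first value (horizontal axis), both as deposited, with unit not stated and on log axes, for the 816 sites 1 to 10 kb from their point; each dot is 1 site, blue upstream and red downstream, the solid line marks equal values and the dashed lines 1.5-fold. Dots of both colours cover the same band, which stays inside the dashed lines from 1 to 96 on the horizontal axis.

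The sites were spread over the whole pooled list and, like the DBD-independent list as a whole, were most frequent at its head. The pooled list carries no score, but over the 816 sites its order followed the first value (Spearman's rho with position -0.94). Among these sites a position near 1 thus went with a high first value. The 8188 sites outside the DBD-independent list carry no value, so for them the meaning of the order could not be checked. With the list divided in its own order into 10 bins, 152 of the 1177 sites of bin 1 (12.9%, 11.1 to 15.0%) belonged to the class, against 27 of 1176 in bin 10 (2.30%, 1.58 to 3.32%). The share became lower from each bin to the next. All DBD-independent sites fell too, from 580 in bin 1 to 124 in bin 10, and the class made up 26.2% of them in bin 1 (22.8 to 29.9%) and 21.8% in bin 10 (15.4 to 29.8%). The median first value of the class was 29 in bin 1 and 5 in bin 10. Median position was 3820.5 (quartiles 1663.75 and 6977.75), against 4128 for the sites within 1 kb and 4183 for those beyond 10 kb. The 8188 sites outside the DBD-independent list had a median position of 6744.5, so that this gap is one of the whole list and not of the class.

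The sites within 1 kb were placed differently. Their share did not start at its highest value: it was 10.9% in bin 1, 14.8% in bin 3 and 0.935% in bin 10. Of the 816 sites 18.6% stood in bin 1 of the pooled list, against 11.9% of the sites within 1 kb, a difference of 6.70 points (Newcombe interval 3.43 to 10.04). In bin 10 stood 3.31% against 1.03%, a difference of 2.28 points (0.983 to 3.81). Sites 1 to 10 kb away were therefore found more often at both ends of the list than sites within 1 kb. Beyond 10 kb the shares were 17.8% and 5.09%, and the differences of the class from them were 0.876 points (-2.28 to 4.19) and -1.78 points (-3.32 to -0.0361).

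**Figure D3:**
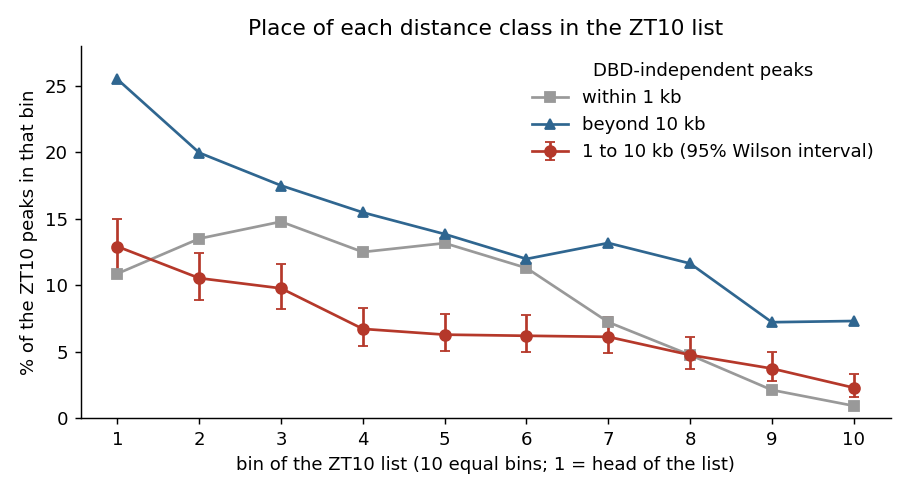
Share of the pooled ZT10 sites that belong to each distance class of the DBD-independent list (vertical axis, %) in each of 10 equal bins of the pooled list in its own order (horizontal axis); error bars are 95% Wilson intervals for the class 1 to 10 kb away. The red line falls from 12.9% to 2.30%, and the grey line for sites within 1 kb is highest in bin 3, at 14.8%.

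By first value, the 10 highest sites of the class were found within positions 3 to 45 of the pooled list. The highest was on chromosome 11 at 98634293 to 98634442, at a distance of 2189 bp, with values of 96 and 82 and position 3. The next was on chromosome 6 at 30516046 to 30516195 (distance -2256 bp), with 93 and 63. This site combined the second-highest first value with a ratio of 0.677, near the low end of the class. A site on chromosome 5 at 138416034 to 138416183 (distance -6641 bp) had values of 72 and 58 at position 22. A site on chromosome 14 at 41909715 to 41909864 (distance -8881 bp) had 71 and 68 at position 25. On chromosome 11 at 18920520 to 18920669 (distance -1622 bp) the values were equal, 69 and 69, the only equal pair among the 10.

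The remaining 5 had first values between 61 and 68. They were on chromosome 11 at 97304827 to 97304976 (distance -6573 bp, 68 and 59), on chromosome 7 at 19603321 to 19603470 (5493 bp, 66 and 51) and on chromosome 5 at 99691550 to 99691699 (-9678 bp, 62 and 55). The last pair was on chromosome 5 at 136479402 to 136479551 (8806 bp, 61 and 57) and on chromosome 1 at 90175803 to 90175952 (-1723 bp, 61 and 43). In all 10 the second value was at or below the first. Upstream sites made up 7 of the 10. Within 10 kb, 6 of the 10 had no other site of the pooled list and 4 had exactly 1.

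At the bounds of the class the sites were unremarkable in value. The first 2 sites past the inner bound were on chromosome 4 at 34498796 to 34498945 (distance 1006 bp, values 7 and 7) and on chromosome 9 at 122259654 to 122259803 (-1006 bp, 18 and 17). The nearest sites left out were on chromosome 4 at 63018121 to 63018270 (999 bp, 12 and 11) and on chromosome 7 at 13610424 to 13610573 (997 bp, 6 and 5). At the outer bound the last sites included were on chromosome 1 at 167648149 to 167648298 (-9998 bp, 8 and 6) and on chromosome 8 at 97948719 to 97948868 (9976 bp, 17 and 13). The first left out were on chromosome 11 at 20981232 to 20981381 (-10021 bp, 19 and 18) and on chromosome 5 at 92522749 to 92522898 (-10062 bp, 4 and 5).

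Sites 1 to 10 kb from their point had other Rev-erbα sites nearby more often than the other classes. Within 10 kb, 362 of the 816 (44.4%, 41.0 to 47.8%) had another site of the pooled list, against 31.9% of the sites within 1 kb (29.2 to 34.7%) and 28.8% of those beyond 10 kb (26.6 to 31.0%). The differences were 12.5 points (Newcombe interval 8.07 to 16.9) and 15.6 points (11.6 to 19.6). Both kinds of neighbour took part. Another DBD-independent site lay within 10 kb of 163 of the 816 (19.98%, against 13.0% and 10.9%), and a site outside that list within 10 kb of 243 (29.8%, against 21.2% and 21.1%). The interval of each of these 4 differences lay above 0. The geometry of the classes enters here. A site beyond 10 kb and a site within 1 kb cannot lie closer than about 9 kb where each distance is to the nearest TSS. Of the 1690 sites beyond 10 kb, 0 had a listed site of the nearest class within 10 kb. Of the 1073 sites within 1 kb, 0 had a listed site of the farthest class in that window. Only the class 1 to 10 kb away had listed neighbours of every distance class. How much of the differences these bounds set was not tested. Sites of one class are not replicates and often share a point, so these intervals cover counting error only.

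The order of the classes depended on the window, and the class was highest at 5, 10 and 50 kb but not at 2 kb. Within 5 kb the shares were 28.7% for the class, 22.9% for the sites within 1 kb and 18.9% for those beyond 10 kb. Within 50 kb they were 79.3%, 66.4% and 71.6% in the same order. Within 2 kb the class, at 14.1% (11.9 to 16.6%), was below the sites within 1 kb, at 17.8% (15.6 to 20.2%), and above those beyond 10 kb, at 10.4%. Within 10 kb the share was 47.4% (43.3 to 51.6%) for members of the class among the first 5883 positions of the pooled list. It was 38.2% (32.7 to 44.1%) for those farther down. Sites within 1 kb had 32.8% and 29.7% in these parts of the list, and sites beyond 10 kb had 30.9% and 24.8%. Of the upstream members 44.5% had a neighbour, and of the downstream members 44.2%.

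Counted as pairs, the 816 sites had 482 neighbours within 10 kb, of which 188 (39.0%, 34.8 to 43.4%) were themselves in the DBD-independent list. A site near several members was counted once for each, and 2 neighbouring members counted each other. The pairs are thus not independent, and their intervals are too narrow. In the pooled list as a whole 30.4% of sites are in that list, with 580 of 1177 in bin 1 and 124 of 1176 in bin 10. The pairs were not matched for position in the pooled list. Around sites within 1 kb the share of listed neighbours was 36.0%, and around sites beyond 10 kb 33.5%, with an interval of 29.9 to 37.3% that takes in the level of the whole list. Neighbours of the class came from several distances: 93 of the 816 had another member of the class within 10 kb, 66 had a site within 1 kb of its point and 20 had a site beyond 10 kb. Members with a neighbour had a median first value of 14 (binomial interval of the median 12 to 15) and a median position of 3232. Members without one had a median first value of 11 (11 to 12) and a median position of 4229. Most neighbourhoods were small, with exactly 1 other site at 263 members, 2 at 81, 3 at 15 and 4 at 3.

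**Figure D4:**
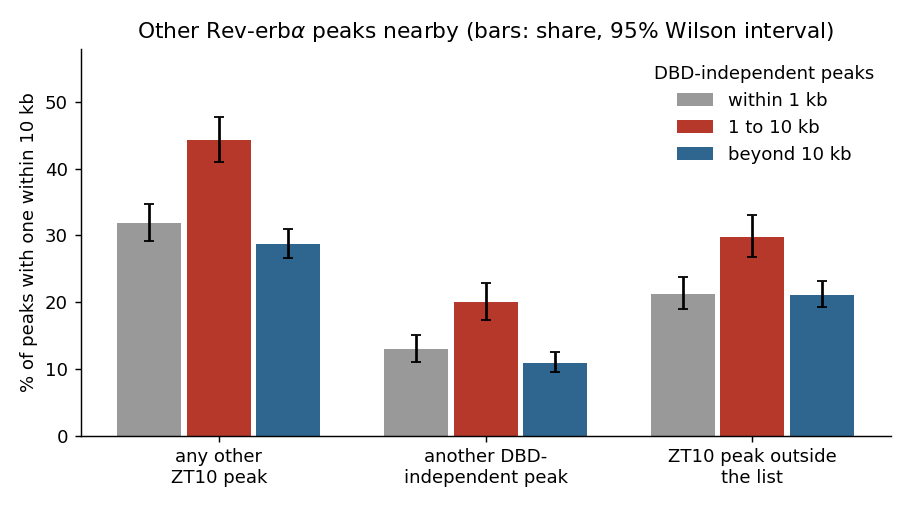
Share of DBD-independent sites (vertical axis, %) with at least 1 other site within 10 kb, by kind of neighbour (groups of bars) and by distance class (grey within 1 kb, red 1 to 10 kb, blue beyond 10 kb); error bars are 95% Wilson intervals. The red bar is the highest in each group, at 44.4%, 19.98% and 29.8%.

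A reference point can be placed, and its strand read, where 2 or more listed sites refer to exactly 1 position. This was so for 242 of the 816 sites (29.7%, 26.6 to 32.9%), which fell on 187 points (90 plus-strand, 97 minus-strand). Sharing was less frequent within 1 kb, at 17.6%, and more frequent beyond 10 kb, at 35.9%. The differences were 12.0 points (Newcombe interval 8.18 to 15.9) and -6.20 points (-10.02 to -2.27). Of the 187 points 135 had a single member of the class, 49 had 2 and 3 had 3.

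Sites at the start itself were present at some of these points. At 56 of the 187 points a listed site lay within 1 kb, and at 10 of the other 131 the pooled list had an unlisted site there. The remaining 121 points had no site of the pooled list within 1 kb. A listed site beyond 10 kb was present at 103 points, and 41 points had members of the class only. The points were selected for holding at least 2 listed sites of which at least 1 lay 1 to 10 kb away. Points with 1 listed site or none are not covered, so these counts are no rate for starts in general.

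Of 52 points with several members of the class 26 had members upstream and downstream, 15 had them downstream only and 11 upstream only. The members of a point spanned a median of 4605.5 bp between starts, from 196 to 18633 bp. Of the sites of the pooled list outside the DBD-independent list, 51 were counted 1 to 10 kb from the 187 points, 22 of them upstream, at 47 points. Since the points were placed by their listed sites, this number is not comparable with that of the members.

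Members had neither regularly higher nor regularly lower first values than other listed sites at the same point. At the 56 points with a site within 1 kb, the highest first value of the members was above that of the near site at 26 and below it at 30, with a median of 14 for each. At the 103 points with a site beyond 10 kb it was above at 57, equal at 5 and below at 41, with medians of 16 and 14. Large differences occurred in both directions, and the following 2 points were picked once their values were known. On the minus strand of chromosome 10 at 76576450, the member 9891 bp downstream had values of 60 and 51, and the site at -245 bp had 12 and 11. On the minus strand of the same chromosome at 77927693, the member 9404 bp downstream had 7 and 5, and the site at 200 bp had 32 and 25.

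**Figure D5:**
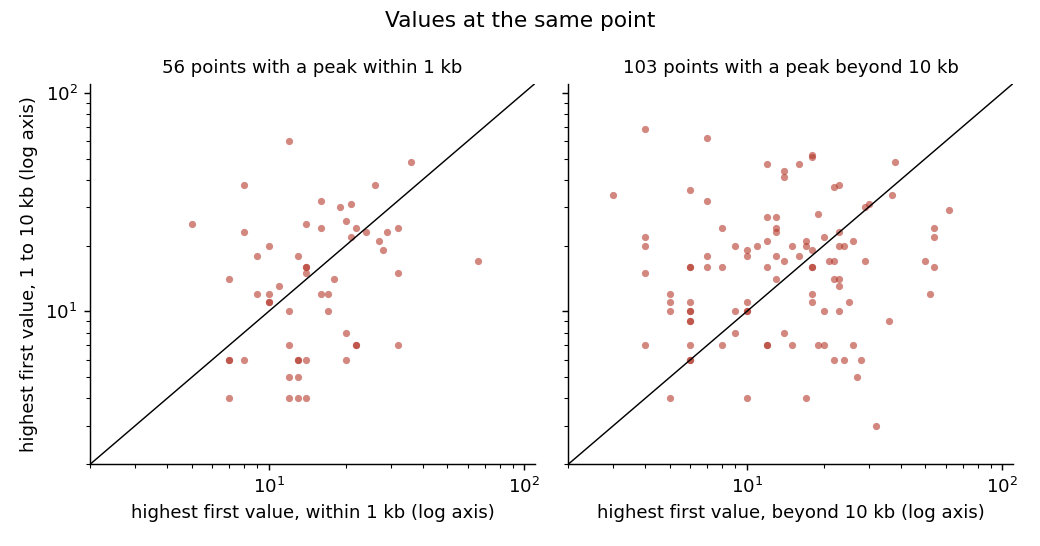
Highest first value among the sites 1 to 10 kb away (vertical axis) against the highest first value among the sites within 1 kb (left panel, horizontal axis) or beyond 10 kb (right panel) at the same reference point; each dot is 1 point, axes are logarithmic, values are as deposited with unit not stated, and the line marks equal values. Dots lie on both sides of the line, with 26 above and 30 below at the left and 57 above and 41 below at the right.

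Of the 10 members with the highest first values, 3 stood at a shared point. The site on chromosome 14 shared the plus-strand point at 41918670 with another member, on chromosome 14 at 41914214 to 41914363, which lay at -4382 bp and had values of 30 and 35. Both lay upstream. The site on chromosome 11 with values of 68 and 59 shared the plus-strand point at 97311474 with sites at -42455 and 25773 bp, each with values of 4 and 3. The site on chromosome 5 with values of 62 and 55 shared the minus-strand point at 99681946 with sites at 18417 bp (7 and 7) and 96472 bp (7 and 5). At the latter 2 points the member carried the only high value among the listed sites. The point on chromosome 5 also had 1 site of the pooled list outside the DBD-independent list within 1 kb, for which no value is given.

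The 3 points with 3 members differed in the layout of the listed sites that refer to them. The span of these sites held 1 further site of the pooled list on chromosome 6 and 1 on chromosome 15, and 0 on chromosome 17. On the minus strand of chromosome 17 at 13746960, a site at 966 bp and members at 1427, 1876 and 2867 bp lay downstream in a row of 2.05 kb. The values were 14 and 19 at the first, 10 and 9 at the second, 21 and 22 at the third and 25 and 17 at the fourth, so the pair tilted one way at the first and the other way at the fourth. These 3 members were also those with 4 other sites of the pooled list within 10 kb. On the minus strand of chromosome 6 at 5143946, members lay on both sides, at -6199 bp (24 and 22), -4841 bp (24 and 19) and 4912 bp (20 and 29), with a site beyond 10 kb at -29780 bp (8 and 10). The 3 members thus had like first values, and the downstream one had the highest second value. On the plus strand of chromosome 15 at 88692624, members lay at -4001 bp (19 and 18), -3721 bp (7 and 6) and 5817 bp (20 and 19), with a site at 29095 bp (9 and 8). Here the upstream site with the lower values stood 280 bp from one with higher values.

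Across chromosomes the share of DBD-independent sites that lay 1 to 10 kb from their point ran from 17.6% on chromosome 14 (21 of 119, 11.8 to 25.5%) to 27.2% on chromosome 5 (65 of 239, 21.9 to 33.2%). The interval of each of the 20 chromosomes took in the 22.8% of the whole list. Of 796 pairs of members neighbouring on a chromosome, 8 were under 1 kb and 48 under 10 kb apart. Another site of the same class lay within 10 kb at 11.4% of members. This share was 7.64% for the sites within 1 kb and 9.82% for those beyond 10 kb.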

How the data were processed

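ChIP-seq of Rev-erbα was made in 6 mouse liver samples. Bowtie, HOMER and the build mm9 are named in the submitters' processing notes, with settings not given in the sources used here. The 2 deposited lists hold sites 150 bp wide and no sample. The authors deposited 2 whole numbers per DBD-independent site, treated here as a score of unstated unit. A distance column, without a header, was read as bp to a TSS. Whole-sample depth is unknown.

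Sites were matched by chromosome, start and end. Points were the site centre minus (plus strand) or plus (minus strand) the distance and may be off by 1 bp. Neighbours were counted centre to centre. The 10 bins follow the order of the pooled list. Shares have 95% Wilson intervals, differences Newcombe intervals and medians binomial intervals, all covering counting error only and treating sites or pairs as independent. Sites are not replicates, so no p-value was computed. The class and the lists were chosen with earlier results of these data known. Named sites are the 10 highest first values, 2 on each side of each bound and points with 3 members. Planned gene lists and motifs were not used, since the supplied tables are for GRCm38 and no mm9 genome or annotation was used. Python 3.11.15, numpy 2.4.6, pandas 2.3.3, SciPy 1.17.1 and matplotlib 3.10.9 were used, and the routines were tested on simulated data. Alternatives were other bounds, windows, autosomes, parts of the pooled list and identifiers.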

Additional observations from a re-analysis of the deposited data

How the results depend on the processing

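Of 26 alternatives to 8 results, 18 stayed within the interval of the value, or within 1.5 times a count, and 8 moved it. The class had 441 members with an outer bound of 5 kb, a narrower window by construction. The median first value was 17 among the first 5883 positions of the pooled list. With ordered identifiers only, chosen after seeing the data, it was 14 and the median position 3110. The median ratio was 0.904 where both values were at least 10. The share with another pooled site nearby was 28.7% within 5 kb, 79.3% within 50 kb and, for members past position 5883 (added later), 38.2% within 10 kb. Beyond what the windows and the order of the list set by construction, the cause was not tested. Matching by an overlap of 1 or 75 bp changed no membership. The alternatives for motifs and genes were not run, as no mm9 genome or annotation was used. No paired analysis was possible because neither list separates replicates, so none could be left out either.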

Other observations

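The identifiers deposited with the sites divide the class, like the other distance classes, in a way the list does not explain. Of the 816 sites 653 had identifiers below 27000, which fall in the order of the distances, and 163 had higher ones. Identifiers below 27000 were found at 1381 of the 1690 sites beyond 10 kb (81.7%) and 948 of the 1073 within 1 kb (88.4%). The Wilson interval for the class, 77.1 to 82.6%, took in the share beyond 10 kb but not that within 1 kb. The split is thus not particular to the class. Within the class the 163 had lower first values, with a median of 10 (quartiles 7 and 12) and none above 25. The 653 had a median of 14 (quartiles 8 and 21) and a maximum of 96. The median position of the 163 in the pooled list was 6225 against 3110, and the first of them stood at position 935. They were upstream at 38.0% (62 of 163, 30.9 to 45.7%) against 45.2% (295 of 653, 41.4 to 49.0%), and had another pooled site within 10 kb at 51.5% (84 of 163, 43.9 to 59.1%) against 42.6% (278 of 653, 38.8 to 46.4%). What the identifiers stand for is not stated, and these groups were formed after the data were seen.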
